A study of Rattus norvegicus with 22 samples.

Results

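The mitochondrial carrier family, whose genes carry Slc25a symbols, was examined in the livers of rats given GSK932121A, an inhibitor of complex III of the respiratory chain, or vehicle. Members were all genes whose only symbol in the platform annotation begins with Slc25a followed by a number. By this rule 44 of the 18166 genes tested were members, each represented by the probe set with the highest mean over all arrays. Each of 22 livers, from female Crl:CD(SD) rats (an outbred Sprague-Dawley stock) labelled as 12 weeks old, was read on an Affymetrix array of its own. All rats received a single intraperitoneal injection of 10 mL/kg. In 10 rats it held GSK932121A at 50 mg/kg, and their livers were taken after 5 hours. In the other 12 it held the vehicle alone (mannitol, hydroxypropylmethylcellulose and sodium dodecyl sulphate in water), for which the labels give no time of sampling. Each group was dosed with 12 animals, and the submitters left out 2 treated ones with low plasma exposure, so the treated group holds animals picked for exposure.

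Carriers of this family span the inner mitochondrial membrane and exchange metabolites between cytosol and matrix, among them nucleotides, phosphate, amino acids, carboxylates and cofactors. The membrane is largely closed to such solutes where no transporter moves them. Pathways split between the compartments, such as the urea cycle, gluconeogenesis and the malate-aspartate shuttle, therefore run through these carriers in hepatocytes. A few members sit in other membranes, as Slc25a17 does in that of the peroxisome.

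The deposited values are log2 intensities, so a difference of 1 is a 2-fold change, and values of different genes come from different probes and are not compared with each other. Array medians lay between 4.73 and 4.85. Of the 44 members, 34 had a mean of at least 5 and 20 of at least 7, and no member was removed for a low value. The vehicle means of 8 members lay below every array median: Slc25a18, Slc25a19l1, Slc25a24, Slc25a29, Slc25a31, Slc25a41, Slc25a51 and Slc25a54. Differences of such dim probe sets can be compressed. Slc25a5 and Slc25a6, adenine nucleotide translocases, shared 2 probe sets that carry both symbols, which were not counted as members. Their vehicle means were 9.2 and 7.8, and their log2 differences -0.07 and 0.01. Neither passed in limma over all probe sets (adjusted p = 0.595 and 0.979). The hepatocyte markers Alb, Ttr, Fgb, Cyp2e1, Ahsg and Serpina1 had vehicle means between 8.30 and 13.41. In limma 0 of these 6 passed the test, with 0 below an unadjusted p of 0.05. The Welch test called 1 of them, Ahsg, and the rank sum test 0. Of markers of other liver cells, Cd163 of Kupffer cells (by 0.36 on the log2 scale) and Lyve1 of sinusoidal endothelium (by 0.22) rose, being 1 of 6 and 1 of 2 measured in their lists. Summed log2 levels of the Kupffer list ran from 43.4 to 47.0 in vehicle and from 43.9 to 46.9 in treated arrays. Those of the endothelial list ran from 16.7 to 17.8 in vehicle and from 17.0 to 17.8 in treated arrays. The remaining lists held 0 calls in limma. Sums in vehicle and then treated arrays ran from 33.4 to 37.0 and 33.8 to 39.0 (stellate), and from 22.6 to 25.1 and 22.4 to 26.8 (bile duct). They ran from 21.9 to 23.8 and 22.1 to 23.9 for lymphocytes, where 2 of 4 had an unadjusted p under 0.05. For neutrophils they ran from 14.6 to 16.2 and 15.0 to 16.0, and for the 1 erythroid marker from 5.3 to 6.0 and 5.0 to 6.2. The part of these cells in the results was not tested.

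Of the 44 carrier genes, 6 rose and 5 fell after GSK932121A at an adjusted p under 0.05 (limma, Benjamini-Hochberg over all genes), and 33 did not pass. The number that fell was 3 when vehicle replicate 1, 4, 5, 7 or 9 or GSK932121A replicate 13, 17 or 23 was left out. The main counts make up 13.6% of members for rises, against 5.31% of all genes, and 11.4% for falls, against 7.05%. In either direction the shares were 25.0% of members and 12.4% of all genes. The median log2 difference was 0.03 over the members and -0.01 over all genes tested, so the family as a whole lay near the centre of the array. Slc25a25, Slc25a32, Slc25a15 and Slc25a22 all rose at least 2-fold (9.09% of members, against 0.716% of all genes), and no member fell 2-fold. The same 4 genes had every treated array above every vehicle array, which held for 0.457% of all genes. In a whole liver, more RNA per cell and more cells that express a gene cannot be told apart.

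**Figure D1:**
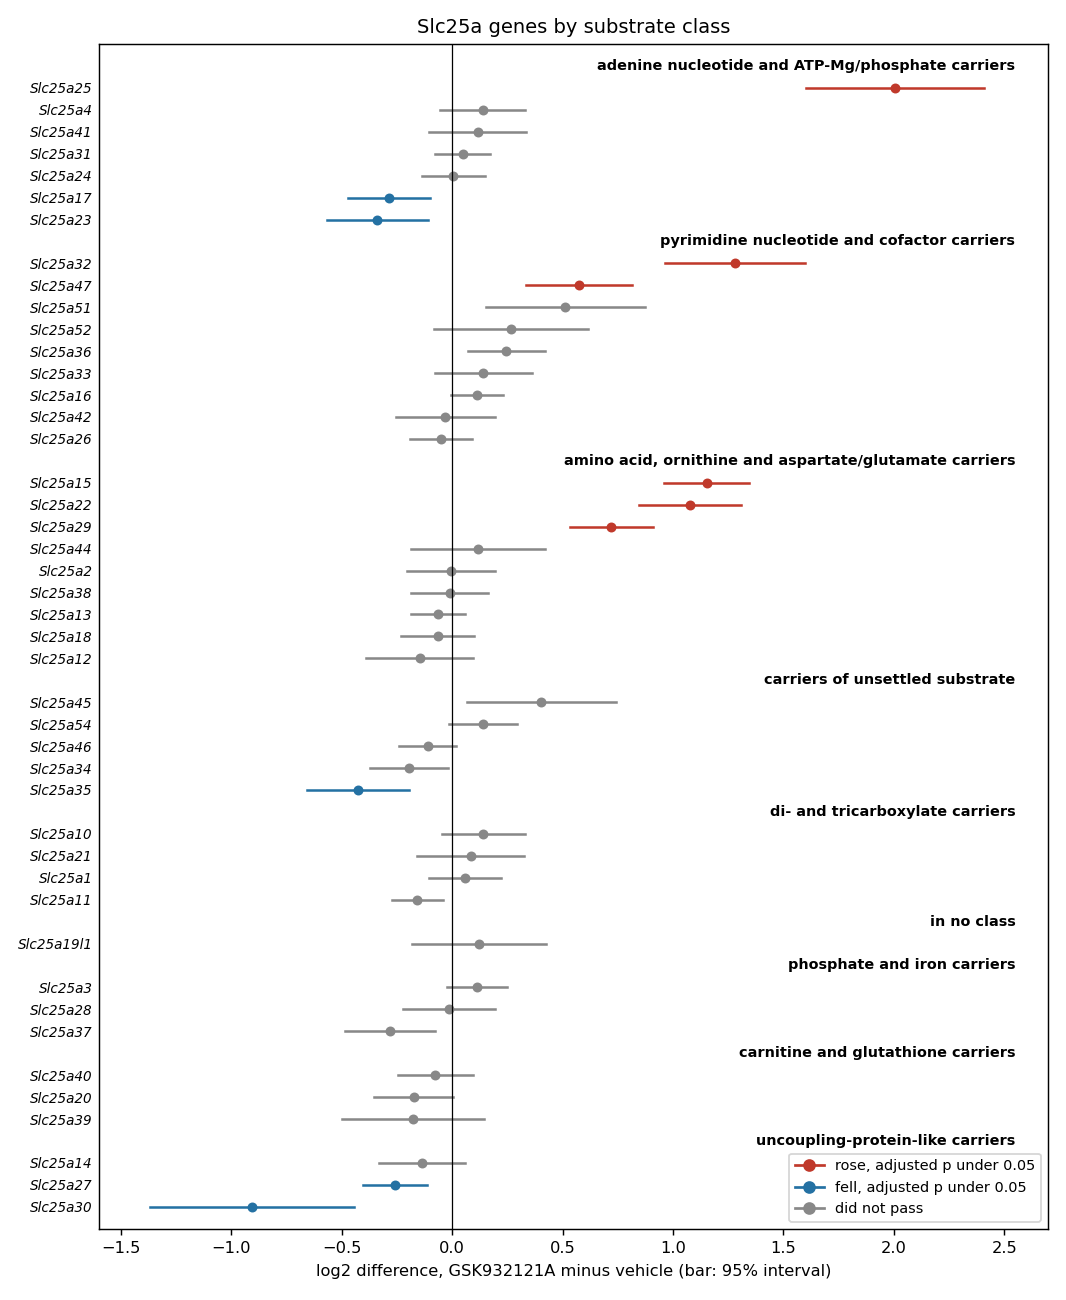
Log2 difference between group means (GSK932121A minus vehicle, x axis) of the 44 Slc25a genes, grouped by substrate class, with points at the estimate and bars for the 95% interval of the limma fit (10 treated and 12 vehicle arrays). The points of Slc25a25, Slc25a32, Slc25a15 and Slc25a22 lie beyond 1 on the right, Slc25a30 lies farthest to the left at -0.91, and most grey intervals (did not pass) cross 0.

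Promoter sequences of Slc25a25, which rose, and Slc25a33, which did not pass, are shown. Of the 37 members found in the RefSeq promoter table (build GRCr8), only these had a full cAMP response element, TGACGTCA. The element is the palindromic word bound by CREB and related factors. Each run holds the 250 bases before the annotated start, 5′ to 3′ on the gene's strand. Capitals mark the element and the shorter core TGACG, which was also searched and lies within the element.
Slc25a25, chr3:36116582-36116831, minus strand: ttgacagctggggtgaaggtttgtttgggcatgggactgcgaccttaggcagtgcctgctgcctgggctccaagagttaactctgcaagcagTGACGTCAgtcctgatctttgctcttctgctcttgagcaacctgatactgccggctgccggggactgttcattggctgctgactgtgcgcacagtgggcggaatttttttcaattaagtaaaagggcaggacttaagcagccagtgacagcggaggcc
Slc25a33, chr5:165502974-165503223, minus strand: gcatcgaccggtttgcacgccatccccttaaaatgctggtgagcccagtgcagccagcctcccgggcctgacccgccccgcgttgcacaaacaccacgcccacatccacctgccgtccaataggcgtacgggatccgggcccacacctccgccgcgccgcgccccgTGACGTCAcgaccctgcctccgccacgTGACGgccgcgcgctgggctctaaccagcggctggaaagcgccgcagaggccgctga
The element begins 158 bases before the start of Slc25a25 and 84 bases before that of Slc25a33. On either strand it was found in 1.59% of all 33469 promoters of this length and in 2.14% of the 15971 that belong to genes tested. The core TGACG was found in 9 of the 37 members (24.3%), against 21.8% of promoters of genes tested. Of the 5 risen members with a promoter in the table it was present in Slc25a25 only, and of the 4 fallen members in none.

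Other words were searched on both strands of the same windows. The C/EBP-ATF element TGATGNAA, the FoxO element GTAAACA and the ERR element TCAAGGTCA were each found in 0 of the 37 members, against 2.60%, 2.59% and 0.282% of promoters of genes tested. The E-box CACGTG was found in 4 members (10.8%), none of which rose or fell, against 6.73%. The GC box GGGCGG was found in 21 members (56.8%), against 44.4%. These are matches of letters in a short window.

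Of 7 measured carriers of adenine nucleotides and related cofactors, 1 rose (Slc25a25) and 2 fell (Slc25a23 and Slc25a17). Over all genes 5.31% rose and 7.05% fell. Slc25a25 rose 4.01-fold while its close relative Slc25a23 fell 1.27-fold. Both encode calcium-regulated exchangers of ATP-Mg against phosphate, which set the size of the adenine nucleotide pool in the matrix. For Slc25a25 the vehicle arrays ran from 7.89 through a median of 8.83 to 9.44 on the log2 scale, and the treated arrays from 9.87 through 10.96 to 11.23. The groups did not overlap. Its log2 difference was 2.00 ± 0.20 (SE; adjusted p = 1.24e-07), ranking 26 from the top among all genes. Its 12 vehicle arrays were spread widely, with an SD of 0.51 against a median of 0.20 over all genes, and its treated arrays equally so (SD 0.51).

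Slc25a23 ran from 9.23 through 9.68 to 9.95 in vehicle arrays and from 8.48 through 9.40 to 9.58 in treated arrays. The ranges overlapped, with 4 treated arrays below every vehicle array. Its difference was -0.34 ± 0.11 (SE; adjusted p = 0.0445). Leaving out 1 array ended the call for 13 of the 22, at most to an adjusted p of 0.0782 (GSK932121A replicate 13). So did median centring (0.0615), cyclic loess (0.0668), all probe sets tested (0.0799), the Welch test (0.0932) and the rank sum test (0.0685).

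The remaining 4 members of this class, Slc25a17 aside, did not pass. Slc25a24, a further ATP-Mg exchanger, differed by 0.01, with a 95% interval from -0.14 to 0.15, and Slc25a41, a relative of Slc25a23, by 0.12 (interval -0.10 to 0.33). Slc25a4, an adenine nucleotide translocase that swaps ATP for ADP across the inner membrane, differed by 0.14 (interval -0.05 to 0.33). Its second probe set gave 0.13 and did not pass either. Slc25a31, the translocase of testis, was dim at a vehicle mean of 2.86 and differed by 0.05.

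Slc25a17, the peroxisomal carrier of coenzyme A and related cofactors, likewise fell 1.22-fold. Vehicle arrays ran from 7.26 through 7.61 to 8.07 and treated arrays from 7.02 through 7.35 to 7.52. Treated arrays lay in the lower part of the vehicle range, with 2 below it. The difference was -0.29 ± 0.09 (SE; adjusted p = 0.0372). Leaving out 1 array ended this call too, for 10 of the 22, at most to an adjusted p of 0.0781 (GSK932121A replicate 23). So did median centring (0.0507), cyclic loess (0.0579), all probe sets tested (0.0659) and the rank sum test (0.123).

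Of 9 carriers of amino acids, 3 rose and 0 fell. Over all genes 5.31% rose and 7.05% fell, so 0 falls among 9 genes is near the background. In limma, the Welch test and the rank sum test alike, 3 of the class passed, and 3 had an unadjusted p under 0.05. The 3 were Slc25a15, which exchanges ornithine for citrulline and links the matrix and cytosolic steps of the urea cycle, Slc25a22, which imports glutamate with a proton, and Slc25a29, a carrier of basic amino acids. Slc25a15 ran from 9.88 through 10.09 to 10.40 in vehicle and from 10.82 through 11.39 to 11.57 in treated arrays. The groups did not overlap. It rose 2.22-fold, by 1.15 ± 0.09 (SE; adjusted p = 8.87e-09).

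Slc25a22 ran from 8.25 through 8.65 to 8.86 in vehicle and from 9.13 through 9.72 to 10.13 in treated arrays. Again the groups did not overlap. It rose 2.11-fold, by 1.08 ± 0.11 (SE; adjusted p = 3.9e-07). Slc25a18, the second mitochondrial glutamate carrier, was dim and differed by -0.06, with a 95% interval from -0.23 to 0.10.

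Slc25a29 ran from 4.06 through 4.39 to 4.67 in vehicle and from 4.53 through 5.15 to 5.49 in treated arrays. All treated arrays but replicate 24 lay above every vehicle array. It rose 1.65-fold, by 0.72 ± 0.09 (SE; adjusted p = 5.77e-06), from a vehicle mean below every array median.

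The remaining amino acid carriers did not pass. Slc25a13, citrin, which trades aspartate for glutamate in the hepatic malate-aspartate shuttle, differed by -0.06 (95% interval -0.19 to 0.06), and its relative Slc25a12 by -0.15 (interval -0.39 to 0.09). Slc25a2, the second ornithine carrier, differed by -0.01 (interval -0.20 to 0.19). Slc25a38, which supplies glycine for haem synthesis, differed by -0.01, and Slc25a44, a carrier of branched-chain amino acids, by 0.12.

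**Figure D2:**
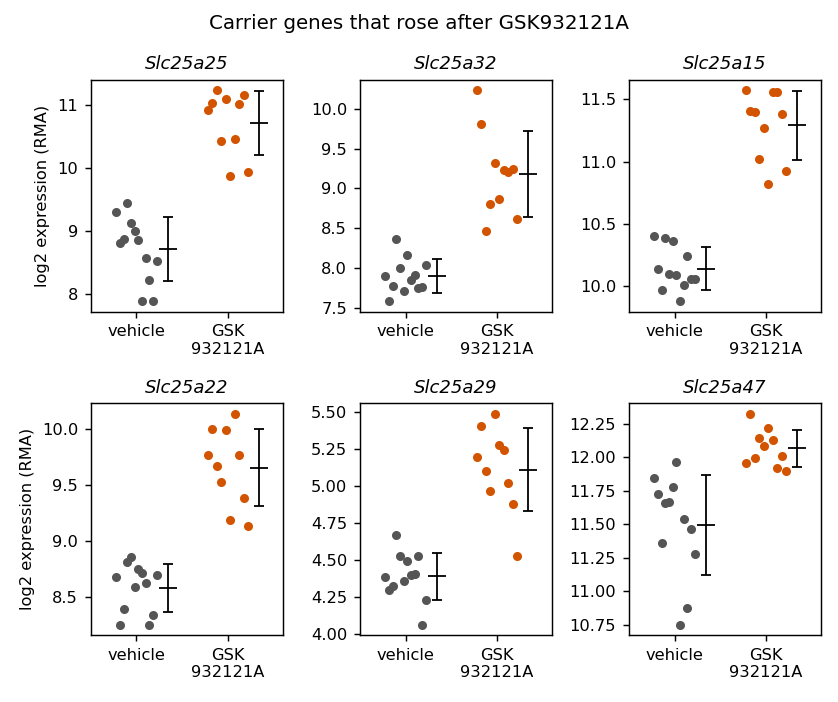
Log2 expression (y axis) on each array for the 6 Slc25a genes that rose, in 12 vehicle (grey) and 10 GSK932121A (orange) livers, with bars for mean ± SD beside the points and a separate y range per gene. Groups do not overlap for Slc25a25, Slc25a32, Slc25a15 and Slc25a22, while 9 treated arrays of Slc25a29 and 7 of Slc25a47 lie above every vehicle array.

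Of 9 carriers of pyrimidine nucleotides and cofactors, 2 rose and 0 fell in limma. Over all genes 5.31% rose and 7.05% fell, so 0 falls among 9 genes is again near the background. In this class 4 had an unadjusted p under 0.05, the Welch test called 2 and the rank sum test 3. Slc25a32, which brings folate or flavin adenine dinucleotide into mitochondria, ran from 7.58 through 7.87 to 8.36 in vehicle and from 8.47 through 9.22 to 10.23 in treated arrays. The groups did not overlap, though the lowest treated array, replicate 16, lay only just above the highest vehicle array, replicate 4. It rose 2.43-fold, by 1.28 ± 0.15 (SE; adjusted p = 2.5e-06). Treated arrays had an SD of 0.54 and vehicle arrays of 0.21.

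Slc25a47, a carrier found mainly in hepatocytes and linked to the transport of nicotinamide adenine dinucleotide, ran from 10.75 through 11.60 to 11.96 in vehicle and from 11.90 through 12.05 to 12.32 in treated arrays. The treated arrays were tightly grouped at the top of the vehicle range, and 7 lay above it. The gene rose 1.49-fold, by 0.58 ± 0.12 (SE; adjusted p = 0.00127). Its SD was 0.37 in vehicle and 0.14 in treated arrays, the opposite order to that of Slc25a32, though neither difference in spread was tested.

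Slc25a51, the general mitochondrial carrier of nicotinamide adenine dinucleotide, had a log2 difference of 0.51 ± 0.17 (SE) from a dim vehicle mean of 4.11 and did not pass (adjusted p = 0.0539). Vehicle arrays ran from 3.63 to 4.76 and treated arrays from 3.64 to 5.34, so the lowest arrays of the groups were nearly level, while 4 treated arrays lay above every vehicle array. It passed when any of 7 arrays was left out. Slc25a52, a close paralog, differed by 0.27 (95% interval -0.08 to 0.61). Whether the probes of either gene also read transcripts of the other was not checked.

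Slc25a36, a pyrimidine nucleotide carrier, differed by 0.25 ± 0.08 (SE; adjusted p = 0.0544), with 6 treated arrays above and 1 below every vehicle array. It passed with cyclic loess (adjusted p = 0.0485), with genes of a mean of at least 5 (0.0326), with the rank sum test (0.0242), and when either of 2 arrays was left out. Slc25a33, the related carrier whose promoter is printed beside that of Slc25a25, differed by 0.14 (95% interval -0.08 to 0.36). Its vehicle arrays ran from 5.23 to 5.98 and its treated arrays from 5.27 to 6.19, so the ranges nearly coincided. The coenzyme A carriers Slc25a42 and Slc25a16 differed by -0.03 (interval -0.25 to 0.19) and 0.11 (interval -0.01 to 0.23). Slc25a26, the carrier of S-adenosylmethionine, differed by -0.05.

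Carriers related to the uncoupling proteins gave the largest fall in the family. Of 3 such genes, 2 fell, beside 7.05% of all genes. Slc25a30, known as a kidney mitochondrial carrier of inorganic anions, ran from 7.41 through 9.17 to 9.68 in vehicle and from 7.26 through 7.85 to 8.83 in treated arrays. Only 1 treated array lay below every vehicle array, and vehicle replicates 9 and 8 were low, at 7.41 and 8.02. It fell 1.87-fold, by -0.91 ± 0.22 (SE; adjusted p = 0.007), ranking 27 from the bottom among all genes. Its vehicle SD of 0.67 was the highest of any member.

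Slc25a27, a carrier best known from brain, fell 1.196-fold (adjusted p = 0.0147), with 6 treated arrays below every vehicle array. Slc25a14, the remaining gene of this class, had a difference of -0.14 (95% interval -0.33 to 0.06).

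Among carriers whose substrate is unsettled, Slc25a35 fell 1.34-fold. Vehicle arrays ran from 5.26 through 5.58 to 6.04 and treated arrays from 4.72 through 5.21 to 5.65. The ranges overlapped, and 6 treated arrays lay below every vehicle array. The difference was -0.43 ± 0.11 (SE; adjusted p = 0.011). Its relative Slc25a34 differed by -0.20 and Slc25a46, an outer membrane protein tied to mitochondrial shape, by -0.11, and neither passed. Slc25a45 differed by 0.40 ± 0.16 (SE; adjusted p = 0.121), with 3 treated arrays above every vehicle array, and Slc25a54 by 0.14.

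**Figure D3:**
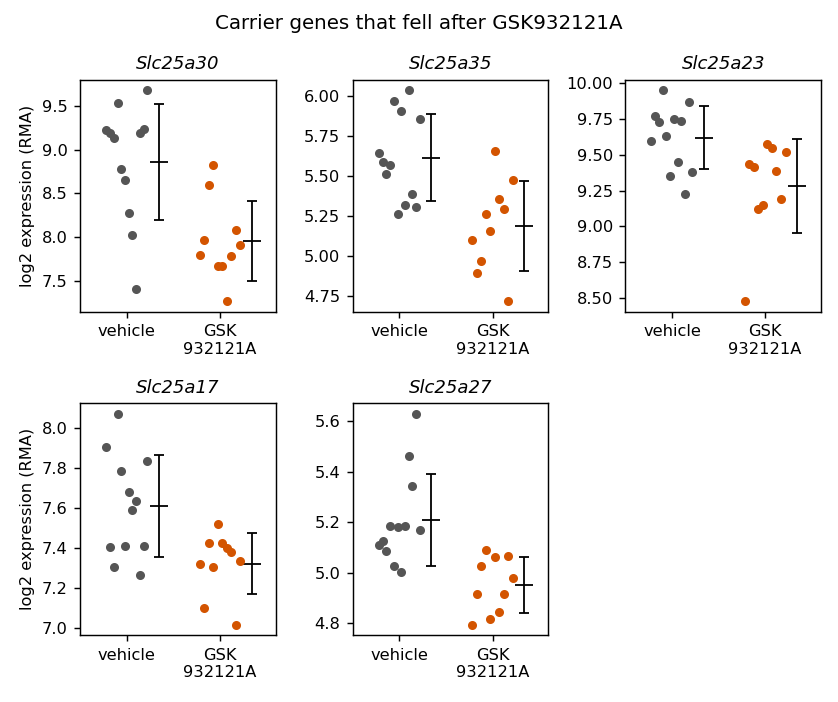
Log2 expression (y axis) on each array for the 5 Slc25a genes that fell, in 12 vehicle (grey) and 10 GSK932121A (orange) livers, with bars for mean ± SD beside the points and a separate y range per gene. Ranges overlap in each, and the number of treated arrays below every vehicle array is 1 for Slc25a30, 6 for Slc25a35, 4 for Slc25a23, 2 for Slc25a17 and 6 for Slc25a27.

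The carriers of phosphate, iron, carboxylates, carnitine and glutathione had 0 calls in limma. With 12.4% of all genes called in either direction, 0 calls in classes this small is near the background. At an unadjusted p under 0.05 stood 1 of the 3 phosphate and iron carriers, 1 of the 4 carboxylate carriers and 0 of the 3 carnitine and glutathione carriers. Over the same classes the Welch test called 0, and the rank sum test called only Slc25a11. Slc25a3, which supplies phosphate for ATP synthesis, differed by 0.11 (95% interval -0.02 to 0.25). Slc25a37, mitoferrin of the erythroid lineage, differed by -0.28 ± 0.10 (SE; adjusted p = 0.0662) and passed when genes of a mean of at least 5 were tested alone (0.0418) or when any of 3 arrays was left out. Its homologue Slc25a28, the mitoferrin of other tissues, differed by -0.01 (interval -0.22 to 0.20).

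Slc25a11, the oxoglutarate-malate carrier of the malate-aspartate shuttle, differed by -0.16 ± 0.06 (SE; adjusted p = 0.073), with 6 treated arrays below every vehicle array. It passed with genes of a mean of at least 5 (0.0366) or 7 (0.0235), with the rank sum test (0.0498), and when either of 2 arrays was left out. Slc25a1, the citrate carrier of fatty acid synthesis, differed by 0.06 (95% interval -0.10 to 0.22), and Slc25a10, the dicarboxylate carrier used in gluconeogenesis, by 0.14 (interval -0.05 to 0.33). Slc25a21, the oxodicarboxylate carrier, differed by 0.08. Slc25a20, which brings acylcarnitines in for fatty acid oxidation, differed by -0.17 (interval -0.35 to 0.00). The glutathione carriers Slc25a39 and Slc25a40 differed by -0.18 (interval -0.50 to 0.14) and -0.08. The last member, Slc25a19l1, which was in no class, was near the bottom of the scale at a vehicle mean of 1.98 and differed by 0.12.

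By gene order in the RefSeq annotation of GRCr8, 3 pairs of members are direct neighbours among protein-coding genes. Slc25a29 and Slc25a47 lie side by side on chromosome 6, and both rose, by 0.72 and 0.58. The genes on either side of them, Yy1 and Wars1, differed by -0.13 and 0.14 and did not pass (adjusted p = 0.272 and 0.19). Slc25a41 and Slc25a23 are neighbours on chromosome 9 and differed by 0.12 (did not pass) and -0.34. Beside them, Khsrp differed by 0.05 (adjusted p = 0.8) and Crb3 by -0.30 (0.0683). Slc25a54 and Slc25a24 are neighbours on chromosome 2, and neither passed, while of the genes beside them Eeig2 rose by 0.30 (adjusted p = 0.0215) and Vav3 differed by 0.22 (0.237).

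Treated livers were not equal in the 6 risen carriers. GSK932121A replicate 24 was among the 3 lowest treated arrays for 6 of 6, and 4 of the 6 still lay above every vehicle array there. Replicate 17 was among the 3 lowest for 4 of 6. Replicates 14 and 18 were each among the 3 highest for 4 of 6, and in both all 6 lay above every vehicle array. Of the 5 fallen carriers, 3 lay below every vehicle array in replicates 13, 14, 18 and 23, and 0 in replicate 20. Vehicle livers varied too: replicate 4 was among the 3 highest vehicle arrays for 5 of the 6 risen carriers, and replicate 10 among the 3 lowest for 4. Over all members the median SD was 0.22 in vehicle and 0.23 in treated arrays, close to the 0.20 of all genes in each group, and 23 of 44 had the larger SD after treatment.

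**Figure D4:**
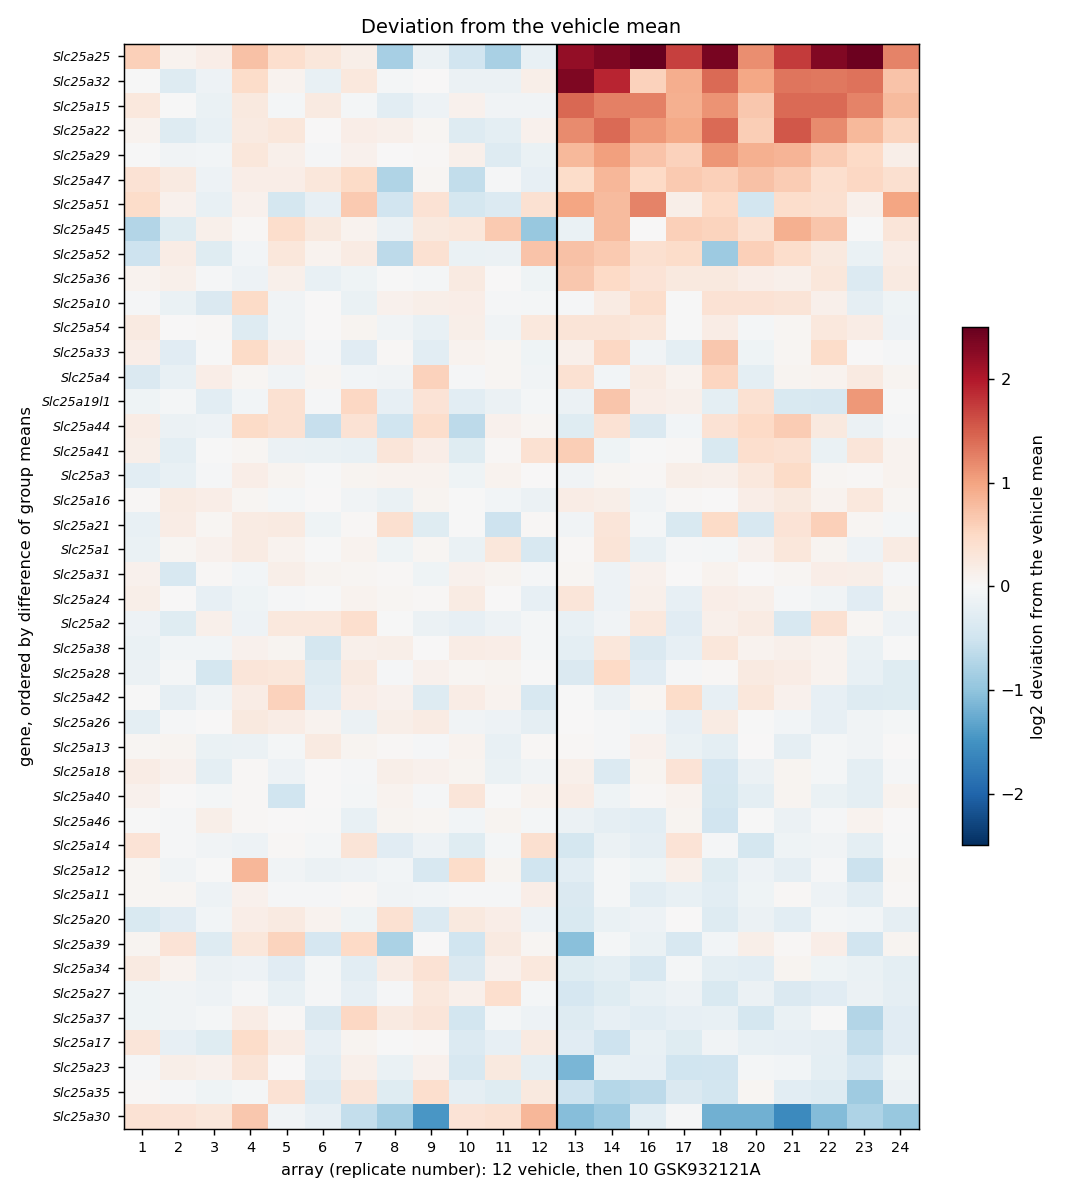
Deviation of each array from the vehicle mean (colour, log2 units) for the 44 Slc25a genes (rows, ordered by difference of group means) on 12 vehicle and 10 GSK932121A arrays (columns, by replicate number). The top 6 rows are red across all treated columns, and the bottom row, Slc25a30, is blue in most treated columns and in vehicle replicates 8 and 9.

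Genes around the carriers were taken from 4 lists drawn up for this report, with earlier results of these data known. Setting their counts beside all genes is therefore no independent comparison. Of 28 measured enzymes that use what the carriers move, 9 rose and 4 fell, beside 5.31% and 7.05% of all genes, with a median difference of 0.06. Several handle the substrates of the risen amino acid carriers, and these rose, fell or did not pass. Oat and Glud1 were among those that did not pass, differing by 0.27 (adjusted p = 0.347) and 0.09 (0.337). Asl, argininosuccinate lyase, rose 2.07-fold, from a vehicle median of 9.56 to 10.62 (adjusted p = 2.42e-06), with 9 treated arrays above every vehicle array. Arg1, arginase, which forms the ornithine that Slc25a15 imports, rose 1.94-fold, from a median of 9.92 to 10.87 (adjusted p = 7.93e-05), and 9 treated arrays again lay above every vehicle array.

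Inside the matrix the urea cycle genes did not move one way. Cps1, carbamoyl phosphate synthetase, rose 1.25-fold (adjusted p = 0.000789), while Otc, ornithine transcarbamylase, fell 1.33-fold (0.00888) and Nags, which makes the activator of Cps1, fell 1.38-fold (0.00895). In the cytosol, where Asl and Arg1 rose, Ass1, argininosuccinate synthase, differed by 0.17 and did not pass (0.166). Gls2, liver glutaminase, which forms glutamate in the matrix, rose 1.35-fold (0.00121), and Aass, which begins the breakdown of lysine, rose 2.60-fold (4.18e-08), with all 10 treated arrays above every vehicle array.

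Of the malate-aspartate shuttle enzymes only the cytosolic transaminase Got1 rose, 4.18-fold, from a vehicle median of 9.27 to 11.55 (adjusted p = 8.87e-09), with no overlap between groups. Got2, Mdh1 and Mdh2 differed by -0.09, -0.08 and -0.17 and did not pass. Mdh2 passed when genes of a mean of at least 5 (0.0439) or 7 (0.031) were tested alone. Gpd2, the mitochondrial enzyme of the glycerol phosphate shuttle, rose 1.46-fold (0.000941). It counts among the rises of this list although its shuttle needs no carrier. Cytosolic Pck1, of gluconeogenesis, rose 1.94-fold (0.000175). Fech, which inserts iron to form haem, fell 1.25-fold (0.00154). The remaining calls were smaller: Mat1a, which makes S-adenosylmethionine, rose 1.19-fold (0.0087) and Cs, citrate synthase, fell 1.15-fold (0.0489). For Cs the call ended with 1 array left out for 17 of the 22, at most to an adjusted p of 0.106 (GSK932121A replicate 13). It also ended with median centring (0.0799), cyclic loess (0.0955), all probe sets tested (0.0785), array weights (0.0528), the Welch test (0.0704) and the rank sum test (0.0585).

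**Figure D5:**
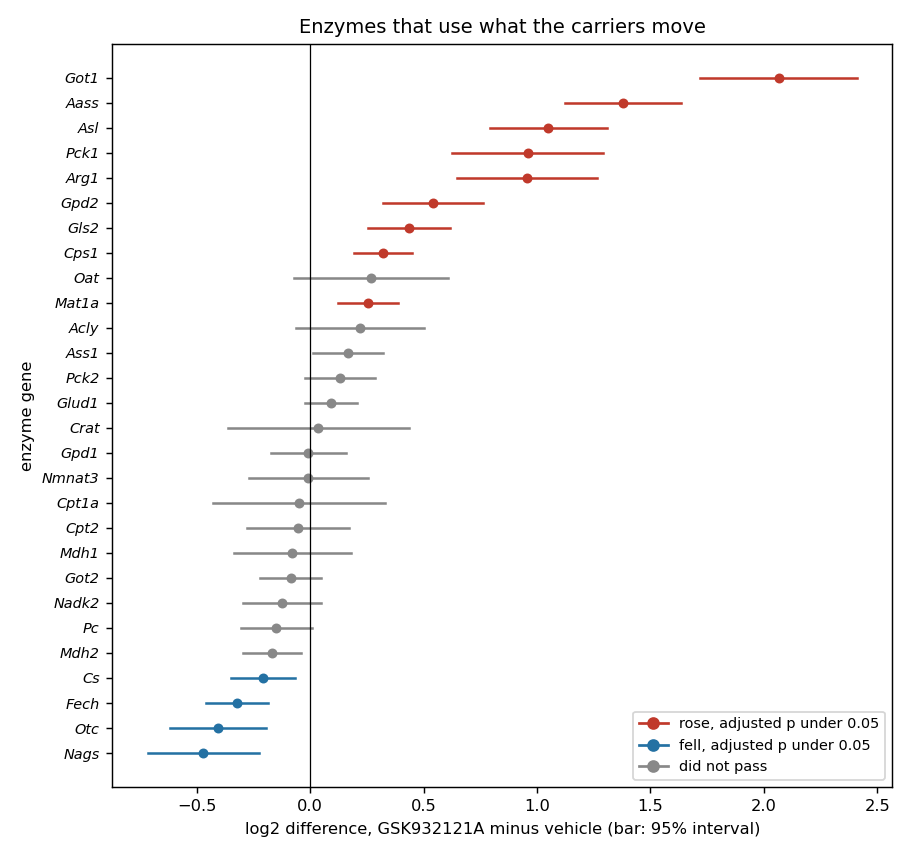
Log2 difference between group means (GSK932121A minus vehicle, x axis) of 28 enzymes that use what the carriers move, with points at the estimate and bars for the 95% interval of the limma fit (10 treated and 12 vehicle arrays). Got1 and Aass lie farthest to the right, at 2.06 and 1.38, and Nags farthest to the left at -0.47.

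The other lists held few calls. Over all genes 5.31% rose and 7.05% fell, so few calls in lists this small are near the background. Among 5 proteins of the carrier fold under other symbols, limma called 0, with 2 at an unadjusted p under 0.05, and the Welch and rank sum tests each called 1, Mtch2. Ucp2, an uncoupling protein, differed by 0.02 (adjusted p = 0.933), and the outer membrane proteins Mtch1 and Mtch2 by -0.19 and -0.14. Of 19 other transporters and channels of the mitochondrial membranes, only the serine transporter Sfxn1 passed, falling 1.18-fold (0.0289). It no longer passed without 1 array for 6 of the 22, reaching at most an adjusted p of 0.0624 (GSK932121A replicate 16), nor with cyclic loess (0.0674) or all probe sets tested (0.0501). Of 13 genes that import carrier proteins, only Tomm20, a receptor of the outer membrane, passed, rising 1.21-fold (0.0115). The other 12 differed by -0.11 to 0.19, among them Tomm70 by -0.01 (adjusted p = 0.94) and Timm22 by -0.03 (0.837). Ppargc1a, a coactivator of mitochondrial gene expression, rose 8.18-fold in the same arrays (3.9e-07).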

How the data were processed

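RNA from the median liver lobe of 22 rats was hybridised to 1 array each. The deposited values are log2 intensities from RMA (background correction, normalisation between arrays, probe set summary), per the submitters' processing notes. The software behind it was not given in the sources used here. Such normalisation removes shifts common to all genes. The platform annotation gave 1 gene symbol to 18511 of the 36685 probe sets, several to 575 and none to 17599, and the last 2 kinds were left out. Of the 18511, 18394 matched the RefSeq table by Entrez identifier, and 0 symbols changed.

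Group means were compared in limma 3.58.1 (R 4.3.3) with group as the only term, as the labels give no batch, and p-values were adjusted by Benjamini-Hochberg over all 18166 genes. The fit was tested on simulated data. A fold is 2 to the power of the log2 difference, and intervals are 95%. Python 3.11.15, pandas 2.3.3 and matplotlib 3.10.9 served for summaries and plots. Called carriers of at least 1.2-fold are given in full, other called ones by fold and p, and those of textbook importance in liver by value. The members, the gene lists and this rule were chosen with earlier results of these data known. Genes named beyond the rule, including those beside neighbouring carriers, were added after their values were seen. Alternatives were median centring, quantile and cyclic loess normalisation, filters at a mean of 5 or 7, other handling of probe sets, array weights, robust settings with a trend on intensity, a Welch test, a Wilcoxon rank sum test, and each array left out. The number of arrays limits the precision.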

Additional observations from a re-analysis of the deposited data

Results flagged for a closer look

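In 3 of the 44 carrier genes, 1 treated array stood apart from the other 9 by more than 0.466 of the group's range. Chance gives such a gap in about 1 of 20 groups, so 3 of 44 is near that rate. Only the treated groups were checked in this way, and vehicle groups were not. Slc25a23 was lowest in GSK932121A replicate 13, at 8.48 against 9.12 in the next array (gap over range 0.588), and its call was lost without that array (adjusted p = 0.0782). Slc25a26 was highest in replicate 18, at 5.84 against 5.64 (0.475). Slc25a36 was lowest in replicate 23, at 4.83 against 5.30 (0.472), and it passed without that array.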

How the results depend on the processing

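All 6 risen carriers kept their call and direction under every alternative that tested them. Slc25a29 was not tested under either filter on the mean. Of the 5 fallen carriers, Slc25a30, Slc25a27 and Slc25a35 kept theirs likewise, except that Slc25a27 and Slc25a35 were not tested at a mean of at least 7. The number of fallen carriers was 3 in place of 5 with median centring, cyclic loess normalisation and all probe sets tested, and 4 with the Welch test, the rank sum test and a mean of at least 7. It was 7, adding Slc25a11 and Slc25a37, at a mean of at least 5. It ran from 3 to 6 with 1 array left out, and that of risen carriers from 6 to 8. Rises were 54.5% of the carriers' calls, but 66.7% with median centring or all probe sets and 70.0% with cyclic loess, and 46.2% at a mean of at least 5. With median centring and all probe sets the rises stayed at 6 and the share moved through lost falls. The median difference of the members was 0.03. It ran from 0.01 to 0.04 with 1 array left out and was -0.01 at a mean of at least 5, where 34 members were tested. The list of carrier-fold proteins, with 0 falls in the main comparison, had 1 with renewed quantile normalisation, at a mean of at least 5, with the Welch test and with the rank sum test, and 2 at a mean of at least 7. The list of other transporters, with 1 fall and 0 rises, had 0 falls with cyclic loess and with all probe sets, and from 0 to 1 of each with 1 array left out. Sign changes were seen only in differences near 0 that did not pass: Slc25a38 (0.0001 with renewed quantile normalisation, 0.0149 with cyclic loess), Slc25a2 (0.0018 with cyclic loess, 0.0165 with array weights), Slc25a28 (0.0161) and Slc25a42 (0.0070), both with cyclic loess. With 1 array left out these ran from -0.0509 to 0.0282 for Slc25a38, -0.0482 to 0.0383 for Slc25a2, -0.0693 to 0.0260 for Slc25a28, -0.0840 to 0.0217 for Slc25a42 and -0.0273 to 0.0373 for Slc25a24. The cause of these changes was not tested. No paired analysis was possible because the groups share no replicate numbers. Dim probe sets, such as those of Slc25a31 and Slc25a19l1, limit what can be seen of those genes.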
